A study of Rattus norvegicus with 28 samples.

Results

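The comparison described here is methamphetamine (meth) against saline in the orbitofrontal cortex of rats at withdrawal day 2. Its members are 8 RNA-seq libraries of the 28 samples listed for the series, chosen by their labels: 4 meth libraries (replicates 1 to 4) and 4 saline libraries (replicates 13 to 16). Count files of 16 orbitofrontal libraries were used, the other 8 being meth and saline libraries of withdrawal day 35. The 12 central amygdala samples were not analysed here. All animals were Sprague Dawley rats, a commonly used outbred stock, that had been trained to self-administer meth or saline through an intravenous line. The labels used here give no age for them. Each library held poly(A) RNA from tissue punches of 2 rats pooled together, taken straight from the home cage, so a replicate is a pool and the spread between single animals is not seen. The labels call the time points short and long, and day 2 and day 35 come from the design text of the series.

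The orbitofrontal cortex is a frontal cortical region that takes part in assigning value to rewards and to the cues that predict them. Methamphetamine is a psychostimulant that releases dopamine and the other monoamines from nerve terminals. Drug seeking in response to cues is known to grow over weeks of withdrawal from self-administered meth, and withdrawal day 2 is the early point of that period. The comparison at day 2 asks which transcripts differ soon after drug intake has ended.

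The count files name genes by Ensembl identifier alone. Of their 26405 identifiers, 0 were found in the gene table at hand, which has symbols for 47357 genes and an Ensembl identifier for 0 of them. The called genes are therefore described by level, size of change, spread and behaviour in each library, and 4 of them by identifier. No gene name, function, position or sequence is given for them, since none could be matched. For the same reason the markers of neurons, glia, vessels, meninges, blood and neighbouring regions could not be read. Whether the punches matched the labelled region, and whether their cellular makeup differed between meth and saline rats, was not tested. In bulk tissue, a lower level can come from fewer cells of a type or from less RNA per cell, and these cannot be told apart.

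The meth libraries were sequenced more deeply than the saline libraries. Reads counted to genes came to 24.97, 35.41, 36.49 and 37.48 M (M, the prefix mega) in meth replicates 1 to 4. They came to 20.33, 23.19, 23.54 and 23.54 M in saline replicates 13 to 16. The 2 groups did not overlap in depth, and meth replicate 1 lay closer to the saline libraries than to the other meth libraries. Between 17806 and 18140 genes had at least 1 read in a meth library and between 17434 and 17717 in a saline library. Reads assigned to no gene made up 21.38 to 21.79% of the meth and 21.1 to 22.13% of the saline libraries, and reads with several alignments 9.17 to 10.29% and 9.276 to 10.15%, so both measures overlapped between the groups. Of all 26405 genes of the files, 19 had reads in each meth library and none in any saline library, and 0 showed the reverse. These genes had at most 14 reads over the 4 meth libraries. The part of the deeper meth sequencing in this count was not tested.

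At day 2, 13 genes were higher and 4 were lower in meth than in saline rats, of 15413 genes tested. The call required an adjusted p (Benjamini-Hochberg, over all genes tested) under 0.05 in edgeR's quasi-likelihood test, a test of read counts that allows for the spread between replicates. The called genes were 0.11% of those tested, 0.0843% in the higher and 0.026% in the lower direction. The changes were small. The higher genes rose 1.13- to 1.58-fold (median 1.21), and the lower genes fell 1.14- to 1.34-fold (median 1.18). An unadjusted p under 0.05 was found for 1612 genes, 917 higher and 695 lower, which is 10.46% of the genes tested. Just past the threshold, the next gene had an adjusted p of 0.0529 and was lower in meth rats, and 29 genes in all were under 0.1 (21 higher and 8 lower, edgeR).

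The gene with the smallest p-value was ENSRNOG00000012404. Levels are given in CPM, the read count of a gene relative to the scaled read total of the genes tested in that library. The level of this gene was 36.18, 39.3, 38.3 and 39.79 CPM in meth replicates 1 to 4. In saline replicates 13 to 16 it was 23.64, 22.47, 25.99 and 24.88 CPM. The lowest meth library thus stood 39.2% above the highest saline library, the widest such gap among the 17 called genes. The group means were 38.39 ± 1.60 CPM in meth and 24.25 ± 1.52 CPM in saline (SD, n = 4 each), and the log2 fold change was 0.66 (SE 0.065, edgeR adjusted p = 7.04e-05).

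ENSRNOG00000013552 was also higher in meth rats. It stood at 39.26, 40.17, 36.7 and 38.99 CPM in meth replicates 1 to 4 and at 28.45, 32.1, 28.33 and 28.87 CPM in saline replicates 13 to 16. Saline replicate 14 was the highest saline library, and the lowest meth library still lay 14.4% above it. The log2 fold change was 0.40 (SE 0.054, edgeR adjusted p = 0.0031).

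Of the lower genes, ENSRNOG00000050983 had the smallest p-value and was an abundant transcript. Its level was 1177, 1091, 1123 and 1097 CPM in meth replicates 1 to 4 against 1330, 1272, 1339 and 1389 CPM in saline replicates 13 to 16. The highest meth library, replicate 1, and the lowest saline library, replicate 14, were the nearest pair, and 8.04% separated them. The log2 fold change was -0.25 (SE 0.040, edgeR adjusted p = 0.013).

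ENSRNOG00000027194 was the second of the lower genes. It stood at 160.1, 143.8, 160.4 and 147.4 CPM in meth replicates 1 to 4 and at 176.4, 171.7, 184.6 and 187.5 CPM in saline replicates 13 to 16. The meth libraries formed 2 pairs, replicates 1 and 3 above replicates 2 and 4, and all 4 lay below every saline library. The log2 fold change was -0.24 (SE 0.039, edgeR adjusted p = 0.013). Without meth replicate 2 or meth replicate 4, neither lower gene passed: the edgeR adjusted p was 0.0613 and 0.0545 for ENSRNOG00000050983 and 0.0613 and 0.0609 for ENSRNOG00000027194. Nor did ENSRNOG00000027194 pass when the 8 day 2 libraries were fitted alone (edgeR adjusted p = 0.0931). With meth replicate 4 and saline replicate 13 both removed, both missed the threshold (edgeR adjusted p = 0.13 each), as did ENSRNOG00000013552 (0.0645).

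**Figure D1:**
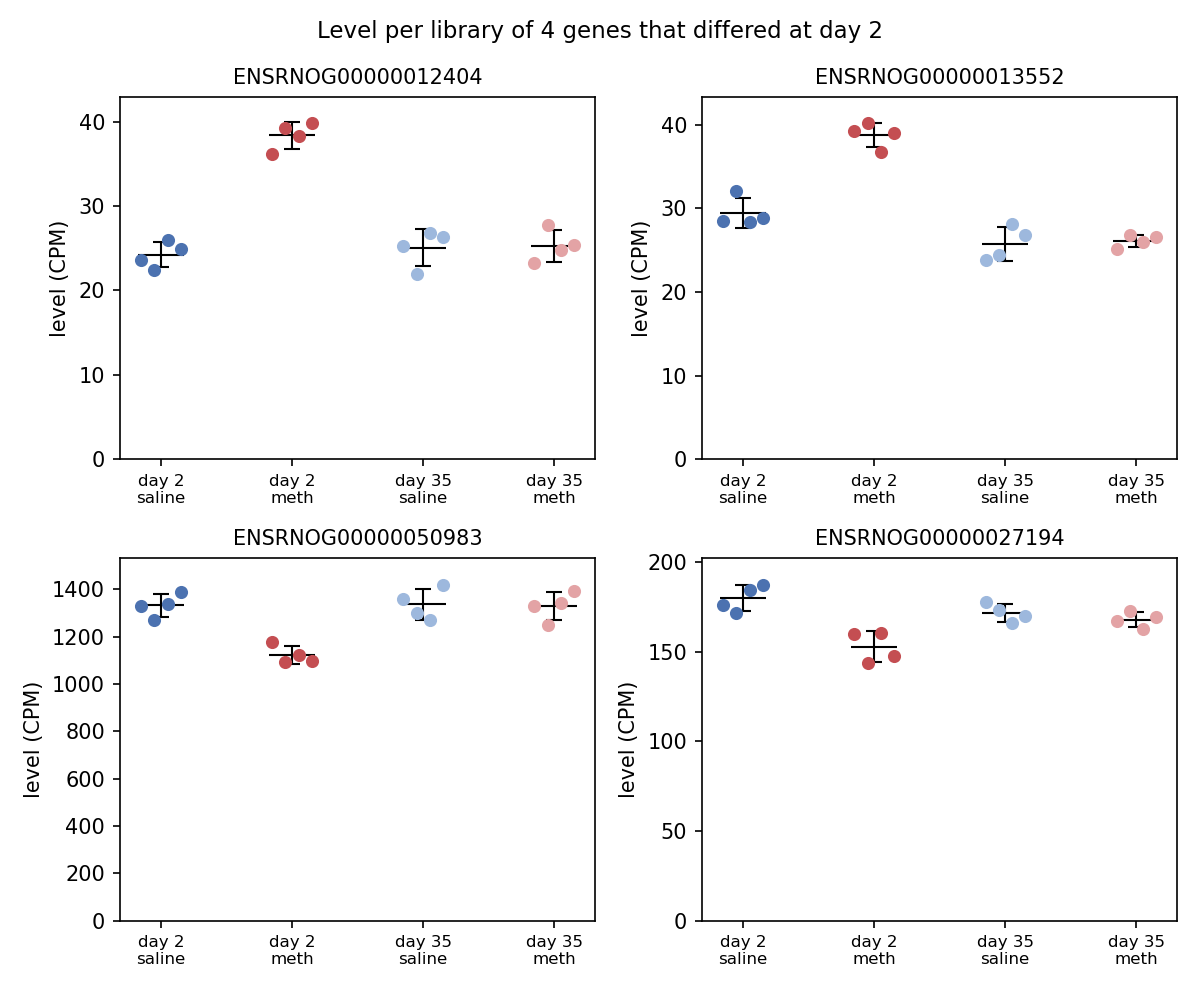
Level in CPM of 4 genes in each of the 16 orbitofrontal libraries, by withdrawal day and drug group. Points are libraries, and bars are the mean and SD of 4 libraries. In each panel the 4 day 2 meth libraries lie on one side of the 4 day 2 saline libraries, while the day 35 meth and saline libraries overlap.

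The other 13 called genes, 11 higher and 2 lower, showed the same separation. In all 13 higher genes every meth library was above every saline library, and in all 4 lower genes every meth library was below every saline library. Such separation alone was common. Of all 15413 genes, 449 (2.91%) had all 4 meth libraries above all 4 saline libraries, and 391 (2.54%) had them below. The called genes were thus 17 of the 840 genes whose groups did not overlap. The gap between the nearest libraries of the 2 groups ranged from 3.37 to 39.2% for the higher genes (median 11.1%) and from 7.06 to 19.2% for the lower genes (median 8.6%). Within a group the coefficient of variation of these genes was 1.04 to 6.99% in meth (median 3.75%) and 1.05 to 7.7% in saline libraries (median 4.42%). Genes were called partly for a low spread, so these values describe the called genes and do not measure the spread of other genes.

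A gene can be called on a small change where its replicates are tight. The clearest case was the fifth of the higher genes, which was called at a 1.145-fold rise. Its meth libraries read 192.6, 193, 193.2 and 189 CPM, and its saline libraries 167.4, 170.1, 166.3 and 166.6 CPM. The group means were 191.9 ± 1.99 and 167.6 ± 1.77 CPM (SD, n = 4 each). The smallest gap belonged to the twelfth of the higher genes. Its lowest meth library read 543.3 CPM and its highest saline library 525.6 CPM, and its log2 fold change was 0.17 (SE 0.032, edgeR adjusted p = 0.029).

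**Figure D2:**
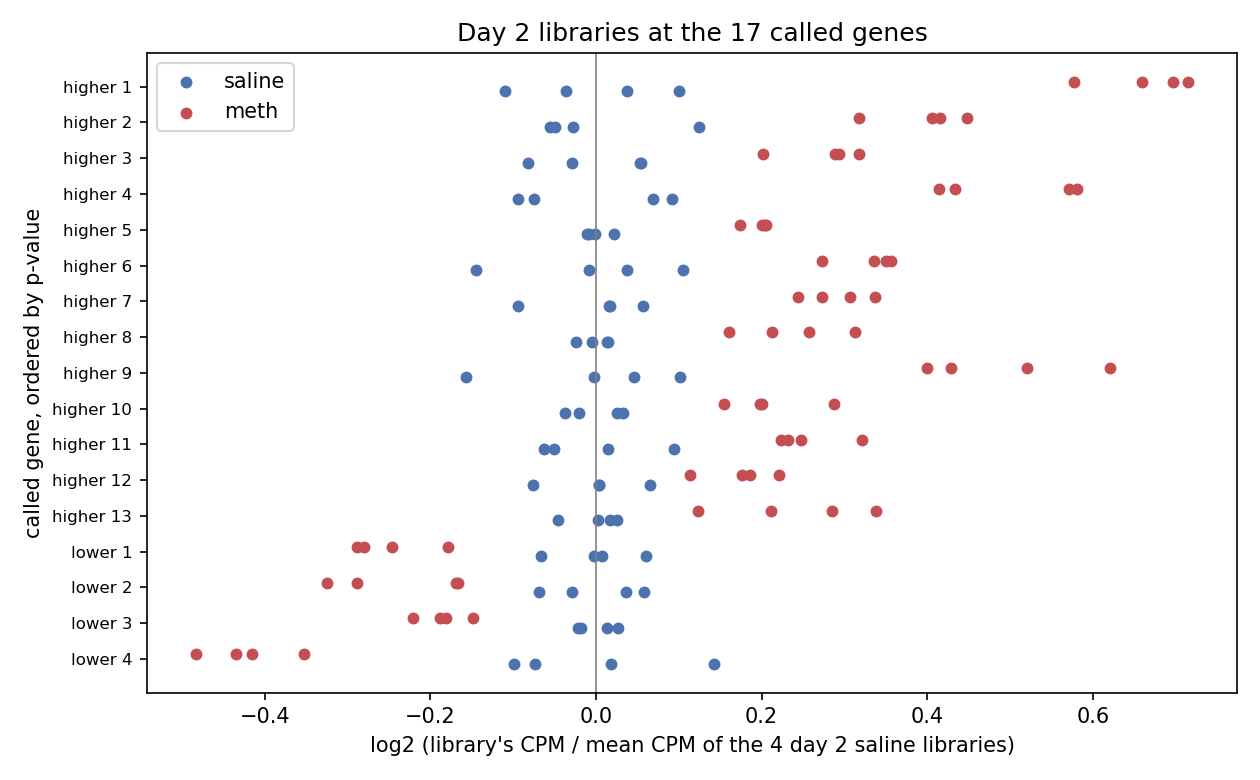
Position of each day 2 library at the 17 called genes, as the log2 ratio of its CPM to the mean CPM of the 4 day 2 saline libraries. Genes are in order of p-value within each direction, and the meth points lie to one side of the saline points in every row, by 3.37 to 39.2% between the nearest libraries.

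Both the precision of the fold change and the share of genes called varied with abundance. The median standard error of the log2 fold change was 0.322 for the 1852 genes under 1 CPM, 0.13 for the 4118 genes at 1 to 10 CPM, 0.0539 for the 7348 genes at 10 to 100 CPM and 0.0359 for the 2002 genes at 100 to 1000 CPM. In these classes 0, 1, 8 and 6 genes were called, and 2 of 93 genes above 1000 CPM. The called genes spanned 4.65 to 1530 CPM in the higher and 14.9 to 1280 CPM in the lower direction, against a median of 17.72 CPM over all genes tested. A difference of more than 1.5-fold was estimated for 316 genes, 226 higher and 90 lower, of which 1, ENSRNOG00000012404, was called. These genes had a median level of 0.4052 CPM and a median standard error of 0.3888, so changes of that size were not detectable for most genes at that level.

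**Figure D3:**
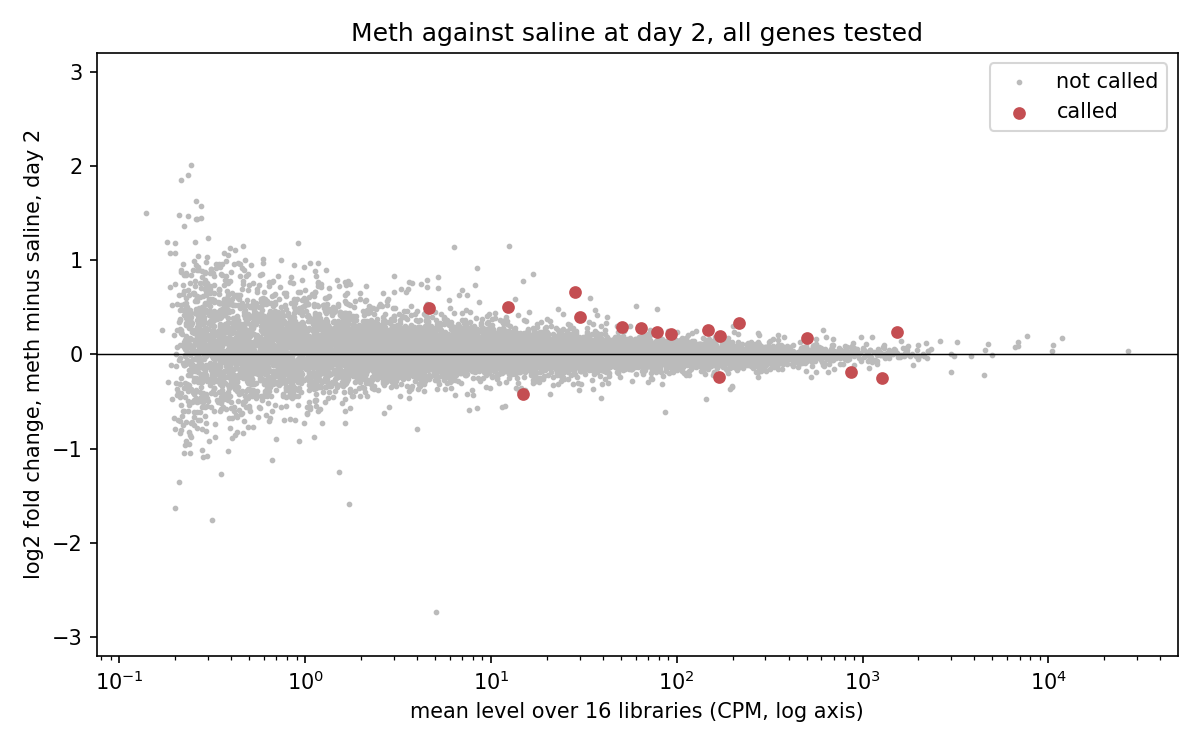
Log2 fold change of meth against saline at day 2 for each of the 15413 genes tested, against its mean level over 16 libraries on a log axis. Grey points were not called, and red points are the 17 called genes, none of which lies under 1 CPM, where the fold changes scatter most widely.

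Over all genes the 2 groups were nearly balanced, with 51.47% of genes higher in meth, 7933 against 7480, and a median log2 fold change of 0.00326. The scaling of the libraries takes most genes as unchanged, so this balance is largely set by the scaling. A shift shared by most genes would not be seen. The balance differed with abundance. The share of genes higher in meth was 58.4% under 1 CPM, 58.9% at 1 to 10 CPM, 48.4% at 10 to 100 CPM and 40.6% at 100 to 1000 CPM. It was 62.4% of the 93 genes above 1000 CPM. The matching median log2 fold changes were 0.07, 0.04, -0.0029, -0.01 and, above 1000 CPM, 0.01, so the tilt was slight beside the changes of the called genes. Depth moved with the drug groups as given above. With all libraries thinned at random to 20.33 M gene reads, the shares in the 4 classes up to 1000 CPM were 60.1, 57.5, 46.7 and 38%, with 1171 genes in the lowest class after filtering, and 60.2% of the genes above 1000 CPM were higher. The part of depth in this pattern was not tested.

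The 8 libraries were sequenced on 4 lanes, each holding 1 meth and 1 saline library of day 2. Within each lane the meth library was above the saline library for all 13 higher genes and below it for all 4 lower genes. The groups did not overlap at these genes, so any pairing of a meth with a saline library gives these signs. On the log2 scale these within-lane differences ran from 0.107 to 0.805 for the higher and from -0.576 to -0.131 for the lower genes. For ENSRNOG00000012404 they were 0.612, 0.805, 0.558 and 0.676 on lanes 1 to 4. For ENSRNOG00000013552 they were 0.464, 0.323, 0.373 and 0.433. For ENSRNOG00000050983 they were -0.176, -0.222, -0.254 and -0.34, and for ENSRNOG00000027194 -0.14, -0.255, -0.202 and -0.346. For ENSRNOG00000050983 and ENSRNOG00000027194 lane 1, with meth replicate 1 and saline replicate 13, held the smallest difference and lane 4 the largest. The other called lower genes did not share this order. The third fell least on lane 3 (-0.131) and most on lane 2 (-0.207). The fourth fell most on lane 1 (-0.576) and least on lane 4 (-0.315). All libraries of a group carried the same index sequence, so an effect of the index or of preparing a group together cannot be told apart from the drug.

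Each day 2 library was placed on a scale from 0 (mean of the saline libraries) to 1 (mean of the meth libraries) at each called gene. Meth replicates 1 to 4 had medians of 1.02, 1.05, 0.992 and 1.02, and saline replicates 13 to 16 of 0.00808, -0.0495, 0.0643 and 0.000955. The scale came from these same libraries, so at each gene the meth positions average 1 and the saline positions 0 by construction. The medians are thus no separate check of the difference. Meth replicate 1 had the widest reach toward the saline libraries, at 0.515 for its lowest gene, against 0.652 to 0.83 for the other 3. Over all genes at 1 CPM or more, saline replicate 13 lay farthest from the other 3 libraries of its group, with a median absolute log2 difference of 0.0909, and meth replicate 3 nearest, with 0.0593.

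The number of called genes moved when libraries were left out. It was 6 without meth replicate 2 and 8 without meth replicate 4, and in both fits all were higher and 0 were lower. It was 10 without saline replicate 13 (7 higher and 3 lower). Without meth replicate 4 and saline replicate 13 together it was 4, with 0 lower. With meth replicate 1 and saline replicate 13 both left out it was 16 (11 higher and 5 lower), of which 10 were among the 17. Without each of the other 5 day 2 libraries the count was 17 to 21, but only 12 to 15 of these calls were among the 17. With the 8 day 2 libraries fitted alone the count was 13, of which 12 were among the 17. In 5 of the 17 genes the call held with every single library left out, and these were the 5 higher genes with the smallest p-values. In all 17 the direction was the same in each of 21 alternative analyses. These reuse the same libraries, whose groups did not overlap at these genes, so a reversal was hardly possible. DESeq2, a second count test, called 73 genes at its defaults (30 higher and 43 lower), of which 15 were among the 17. The rest of the 17 were given no adjusted p there by its filter on low counts. With that filter off it called 67 genes (35 higher and 32 lower), among them all 17. In contrast to the 13 to 4 split of the edgeR calls, the DESeq2 calls leaned downward or were near even.

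The same genes were then read in the 8 libraries of withdrawal day 35, none of which is in the day 2 groups. The 2 comparisons are not fully separate, since filter, scaling and spread estimates came from all 16 libraries. None of the 17 was called at day 35, and their smallest edgeR adjusted p there was 0.7625. At day 35, edgeR called 0 of 15413 genes, with 902 at an unadjusted p under 0.05. The log2 fold changes of the 13 higher genes at day 35 ran from -0.131 to 0.0841 (median -0.05), and 5 of them were positive. Those of the 4 lower genes ran from -0.0328 to 0.106 (median -0.0057), and 3 were negative.

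Whether the meth effect differed between the days was tested gene by gene for the 4 genes followed here. For ENSRNOG00000012404 the day 35 libraries read 23.28, 27.78, 24.76 and 25.35 CPM in meth replicates 5 to 8 and 25.25, 21.98, 26.79 and 26.29 CPM in saline replicates 9 to 12, so the groups overlapped. The log2 fold change at day 2 exceeded that at day 35 by 0.65 (SE 0.090, edgeR adjusted p = 0.013), in a test that called 0.136% of all genes. The call was lost without day 2 saline replicate 14 (edgeR adjusted p = 0.0556). It was also lost when meth replicate 4 and saline replicate 13 were both removed (edgeR adjusted p = 0.0731). The day 2 effect minus the day 35 effect was 0.38 (SE 0.076, edgeR adjusted p = 0.066) for ENSRNOG00000013552, -0.24 (SE 0.057, edgeR adjusted p = 0.15) for ENSRNOG00000050983 and -0.20 (SE 0.055, edgeR adjusted p = 0.21) for ENSRNOG00000027194. A difference between days was thus not shown by this test for these 3 genes. Of all 17 genes called at day 2, 10 passed it (9 higher and 1 lower at day 2), and 16 had an unadjusted p under 0.05. The test uses the same day 2 libraries that chose these genes, so the tally is not independent of the choice. It was 3 with lane as a block, 5 with median-ratio size factors and 0 to 5 with 1 day 2 library left out. It was 13 with DESeq2, and 8 both with no low-count gene filter in edgeR and with thinned counts.

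**Figure D4:**
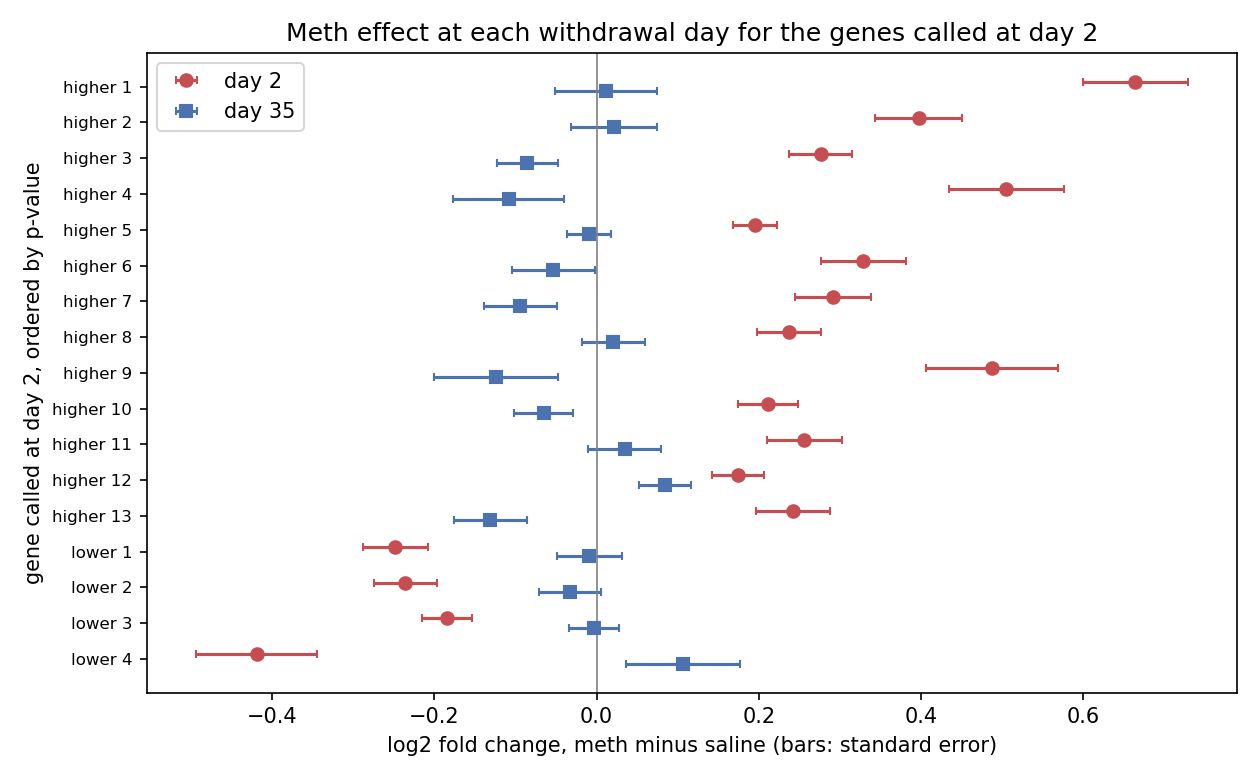
Log2 fold change of meth against saline at day 2 (red circles) and at day 35 (blue squares) for the 17 genes called at day 2, with bars of 1 standard error. The genes were chosen for their day 2 values, and at day 35 the estimates lie between -0.131 and 0.106.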

How the data were processed

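The deposited values are raw counts of reads per gene, 1 file per library, with no normalization. Libraries were made with a poly(A) TruSeq kit, per the labels' protocols. TopHat, HTSeq and limma and the build rn4 are named per the submitters' processing notes. Versions, annotation release and strand setting are not given in the sources at hand. Each file has 26405 genes and 5 summary rows of HTSeq, which entered neither library sizes nor tests.

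Genes were filtered with edgeR's filterByExpr, leaving 15413, and scaled by TMM. One model of 4 group means over 16 libraries was fitted by glmQLFit with robust estimation, and contrasts were tested by glmQLFTest across all genes (edgeR 4.0.16, R 4.3.3). CPM used TMM-scaled library sizes, summed over the genes kept by the filter. Each standard error is the log2 fold change over the root of its F statistic. The pipeline was tested on simulated data. No 2 libraries of a day 2 group agreed within sampling noise (chi-square per degree of freedom 5.19 to 12.99), so none was only a second sequencing of another. This check cannot show that each held RNA of different rats. Each was taken as a replicate, as numbered in the labels.

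Lane, given in the labels, pairs 1 meth with 1 saline library. Deviations from the group means correlated by -0.272, 0.0291, 0.154 and 0.0571 on lanes 1 to 4. For meth and saline libraries on different lanes the correlations ran from -0.244 to 0.303. Alternatives were other size factors and filters, lane as a block, DESeq2 1.42.0, voom in limma 3.58.1, the day 2 libraries alone and leaving out libraries. Those added after seeing the data were thinned counts, 2 further DESeq2 settings, sample weights and leaving out 2 pairs of libraries. The libraries compared, gene lists and rule for named genes were chosen with earlier results of these data known. That rule named called genes, the next by p-value and list members by symbol, and could not be run. The identifiers printed are instead the 2 with the smallest p in each direction.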

Additional observations from a re-analysis of the deposited data

Results flagged for a closer look

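In 6 of 20 sets of 4 values, 1 library stood apart from the other 3 of its group, where chance flags about 1 in 20. These sets are not independent, since libraries and measures recur. Saline replicate 13 had 20.33 M gene reads, the fewest. Saline replicate 14 had the highest TMM scaling factor of its group, 1.018, and the highest saline level of ENSRNOG00000013552, 32.1 CPM. Meth replicate 1 had the fewest gene reads (24.97 M) and the fewest genes with a read (17806) of the meth libraries. Reads with several alignments took a larger share of it (10.29%) than of any other meth library.

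The meth effect on ENSRNOG00000012404 differed between the withdrawal days by a direct test, by 0.652 on the log2 scale (day 2 minus day 35). The gene was picked for its day 2 p-value, and the test uses the same day 2 libraries. The call was lost without day 2 saline replicate 14 (edgeR adjusted p = 0.0556). It was also lost without meth replicate 4 and saline replicate 13 together (edgeR adjusted p = 0.0731).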

How the results depend on the processing

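The count of 17 genes at day 2 stayed within 1.5 times under 14 of 21 alternatives. It was 73 with DESeq2 and 67 with DESeq2 without independent filtering. With DESeq2's filter tuned to 0.05 it was 115 (46 higher and 69 lower), 12 of them among the 17. The rest of the 17 were given no adjusted p at that setting, among them ENSRNOG00000012404 and ENSRNOG00000013552. The count was 6 to 21 with 1 library left out, and 6 to 15 of these calls were among the 17. The count was 4 without meth replicate 4 and saline replicate 13 together. It was 16 without meth replicate 1 and saline replicate 13, with 10 among the 17. With lane as a replicate block it was 17, of which 15 were the same genes, and with thinned counts 19. The number of the 4 followed genes whose meth effect differed between days was 1. It was 3 under each of the 3 DESeq2 settings, 2 with thinned counts, 0 without meth replicate 4 and saline replicate 13 together, and 0 to 1 with 1 library left out. Of all 17 genes, 10 had such a difference. That tally was 5 with median-ratio size factors, 6 with the filter at 1 CPM, with limma-voom and with sample weights, 3 with lane as a replicate block, and 0 to 5 with 1 library left out. It was 0 without meth replicate 4 and saline replicate 13, and 5 without meth replicate 1 and saline replicate 13. It was 13 under each of the 3 DESeq2 settings, and 8 both with no low-count gene filter in edgeR and with thinned counts. The cause of these shifts was not tested. None of the 4 genes changed direction in any alternative. At day 2 a reversal was hardly possible, since the groups did not overlap at these genes. There, 8 of 82 alternative values of the 4 genes missed the threshold, none for ENSRNOG00000012404 (edgeR, DESeq2 or limma adjusted p up to 0.00403). Precision was lower for rarer genes: the median standard error was 0.322 under 1 CPM, where 0 of 1852 genes were called, and 0.13 at 1 to 10 CPM, where 1 of 4118 was.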
